A study of Mus musculus with 36 samples.

Results

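RNA sequencing compared 3 fractions of mouse bone marrow monocytes at day 0, all carrying the genotype label Irf8 cKO (a conditional knockout of Irf8). The fractions were sorted by surface Ly6C, a membrane protein abundant on inflammatory monocytes, into Ly6C-negative (Ly6Cneg), Ly6C-high (Ly6Chi) and Ly6C-intermediate (Ly6Cint) cells. Each fraction had 3 libraries, so 9 of the 34 libraries with values were compared, and the Ly6Cneg libraries were set against Ly6Chi and against Ly6Cint separately. Genes that differed in the same direction from both are described here. The day 0 cells are bone marrow monocytes in the growth factor MCSF (BMM), and 9 libraries of the same genotype label were made from osteoclasts (OC) at day 4, grown in 20 ng/ml MCSF with 40 ng/ml of the osteoclast-inducing cytokine RANKL. The 8 day 0 libraries labelled WT comprised 2 Ly6Cneg, 3 Ly6Chi and 3 Ly6Cint libraries. The labels give no age, Cre driver or number of animals per library, and the series' design text says that mice of both sexes were used. Nothing states that replicates were separate animals or cultures, so the spread between replicates may be technical. Each p-value of the main linear model sets a difference against that spread, pooled over all 34 libraries and not only the 9 compared.

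Ly6C-high monocytes leave the bone marrow as classical, inflammatory monocytes, whereas Ly6C-low monocytes patrol vessels and are known for Nr4a1, Cx3cr1 and Itgax. Neutrophil precursors pass through the same marrow and fill their granules in sequence: myeloperoxidase and serine proteases enter the primary granules first, and lactoferrin, lipocalin 2 and cathelicidin are made later. Antigen-presenting cells display peptides on MHC class II molecules, whose genes are switched on together by the transactivator CIITA. IRF8 is a transcription factor that favours monocyte and dendritic cell fates over granulocytes and restrains osteoclast formation.

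All values are on the deposited log2 scale, on which 3.896 is the value of 0 reads, and each difference is Ly6Cneg minus the other group ± the standard error from limma. Where a pair of differences is given, the first is against Ly6Chi and the second against Ly6Cint. Relative depth of the 9 libraries differed 2.12-fold, and genes with at least 1 read numbered 32535 to 35171 in Ly6Cneg, 26716 to 31422 in Ly6Chi and 29059 to 33180 in Ly6Cint libraries. Correlations across genes were 0.950 to 0.970 between replicates and 0.932 to 0.956 between Ly6Cneg and other libraries. The Ly6Chi library of replicate 1 stood apart in part of the mitochondrial genome. Its mt-Co2 value was 14.57, against 8.21 and 8.19 in the other Ly6Chi libraries, 8.01, 8.12 and 7.41 in Ly6Cneg and 7.87, 7.80 and 8.10 in Ly6Cint libraries. Such high mt-Co2 values, above 10, occurred in 10 of the 34 libraries, while mt-Nd1 was at 16.05, 15.86 and 15.61 in the 3 Ly6Chi libraries. Without that library 6425 genes were called against both, where all libraries gave 6840, and leaving out each of the 9 libraries in turn gave 5142 to 6911.

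The sort was checked on Ly6c2, which encodes a Ly6C antigen (ENSMUSG00000022584, chromosome 15, 75108158 to 75111970, minus strand, mm10). Ly6c2 values were 11.74, 11.94 and 11.32 in the Ly6Cneg libraries, against 13.30, 12.83 and 13.74 in the Ly6Chi and 14.39, 14.52 and 14.45 in the Ly6Cint libraries. Its near-identical neighbour Ly6c1 may share reads with it. Ly6c1 went the other way, 2.92-fold higher in Ly6Cneg than in Ly6Chi cells and 1.08-fold higher than in Ly6Cint cells. Its call against Ly6Chi was lost after quantile normalization (adjusted p = 0.213), with array weights (0.318) and in a fit of only the compared libraries (0.0879). For Ly6c2 the 3 groups did not overlap, and Ly6Cint cells stood above Ly6Chi cells. The differences of Ly6c2 were -1.62 ± 0.19 against Ly6Chi (adjusted p = 5.41e-07) and -2.79 ± 0.19 against Ly6Cint (adjusted p = 1.39e-11). Irf8 itself (ENSMUSG00000041515, chromosome 8, 120736358 to 120756694, plus strand) was high in all fractions, at 14.02, 13.85 and 14.21 in the Ly6Cneg libraries, against 14.31, 14.26 and 14.11 in the Ly6Chi and 14.14, 14.39 and 14.22 in the Ly6Cint libraries. Its difference did not pass the threshold against Ly6Chi (-0.20 ± 0.08, adjusted p = 0.064) and passed narrowly against Ly6Cint (-0.22 ± 0.08, adjusted p = 0.0402). That call was lost after median centring (adjusted p = 0.0927), after quantile normalization (0.827) and without a trended or robust prior (0.0868). It was also lost with array weights (0.0549) and in a fit of only the compared libraries (0.235). In WT libraries Irf8 stood at 12.78 and 12.73 in Ly6Cneg, 13.60, 13.50 and 13.56 in Ly6Chi and 13.31, 13.43 and 13.41 in Ly6Cint cells. Every day 0 library labelled cKO therefore had more Irf8 RNA than the day 0 WT libraries of its fraction, and cKO is used below as the name of a label. One value per gene does not show whether an exon is missing.

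Macrophage-lineage RNAs were abundant in all 9 libraries. The MCSF receptor gene Csf1r averaged 15.30 ± 0.19 in Ly6Cneg, 15.12 ± 0.27 in Ly6Chi and 14.73 ± 0.10 in Ly6Cint cells (SD, n = 3 each), and the macrophage antigen gene Adgre1 averaged 14.13 ± 0.15 in Ly6Cneg, 14.33 ± 0.19 in Ly6Chi and 13.88 ± 0.15 in Ly6Cint cells. The integrin alpha M gene Itgam, which encodes CD11b, fell in Ly6Cneg cells, with values of 12.91, 12.97 and 12.41 in the Ly6Cneg libraries, against 14.12, 13.95 and 14.54 in the Ly6Chi and 14.50, 14.28 and 14.51 in the Ly6Cint libraries. Ly6Cneg libraries did not overlap with the other groups for Itgam, and the differences were -1.44 ± 0.12 and -1.67 ± 0.12. In bulk libraries such as these, fewer cells of a type and less RNA per cell cannot be told apart. The X-inactivation RNA Xist (12.50, 12.71 and 13.34 in Ly6Cneg libraries) and the Y-linked helicase gene Ddx3y (10.59, 10.43 and 10.85) were both read in every library, and neither was called. Of 6 sex-linked genes tested, 1 was called against both, Eif2s3y, at -0.42 ± 0.13 and -0.66 ± 0.13. Its call against Ly6Chi was lost after quantile normalization (adjusted p = 0.0695), with array weights (0.117) and in a fit of only the libraries compared (0.132).

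In the fit of all libraries, Ly6Cneg cells had many more called genes above than below the other fractions, but the largest single changes were falls. Against Ly6Chi, 10513 of 38873 genes tested were called (27%) by limma with Benjamini-Hochberg adjustment, 7317 higher (18.8%) and 3196 lower (8.22%). After quantile normalization the split was 4171 higher and 3281 lower. Against Ly6Cint, 10693 were called (27.5%), 6777 higher (17.4%) and 3916 lower (10.1%). In the same direction from both, 6840 were called (17.6%): 4371 genes were higher (11.2%) and 2469 lower (6.35%), and 37 genes (0.0952%) were called in opposite directions. The comparisons share the Ly6Cneg libraries, so no test of the overlap was made. Differences of at least 2-fold from both were found for 2312 higher (5.95%) and 497 lower genes (1.28%). Of the called genes, 3040 higher (7.82%) and 2002 lower (5.15%) also had 3 Ly6Cneg values outside the range of the 6 other libraries. Among 19775 protein-coding genes tested, 2966 were higher (15%) and 2183 lower (11%).

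The higher genes were mostly of low abundance. Their median level, the highest of the 3 group means, was 6.46, against 10.92 for the lower genes. Of 27950 genes under a level of 8, 3033 were higher (10.9%) and 267 lower (0.955%), whereas of 10923 genes at 8 or above, 1338 were higher (12.2%) and 2202 lower (20.2%). More olfactory receptor genes, which monocytes are not known to use, had reads in Ly6Cneg libraries. Of 936 tested, 140 (15%) were called higher than in both, which is the share of all protein-coding genes (15%) and no result about these receptors. Reads lay on 724 to 825 of 937 such genes in Ly6Cneg libraries, 375 to 632 in Ly6Chi and 457 to 702 in Ly6Cint libraries. Ly6Cneg libraries did not overlap with either other group, and an exact permutation test, two-sided, gave p = 0.1 against each, the smallest possible with 3 against 3 libraries. The part of this background in the rises of low genes was not tested. Of the higher genes, 776 were at 0 reads in all 6 Ly6Chi and Ly6Cint libraries. Counts for the gene lists below are to be read against 11.2% higher and 6.35% lower over all genes, and for lists of abundant genes against 12.2% and 20.2%, and a share near these is no result about the list. In a fit of only the 9 compared libraries, 2525 genes were called against both. Many list counts that moved by more than 1.5-fold there, or under other alternatives, are given with the counts. Calls of single genes in a fit of only the compared libraries come from the 6 libraries of that comparison.

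**Figure D1:**
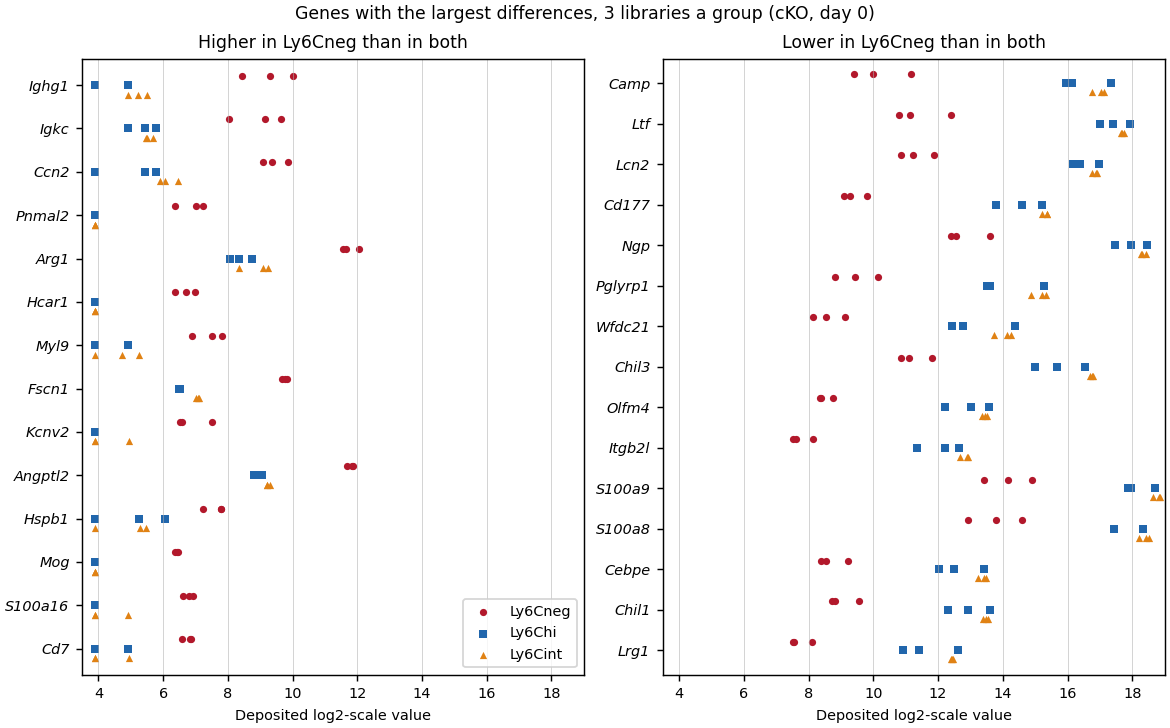
Deposited log2-scale values (x axis) of genes with the largest rises (left) and the largest falls (right), 1 point for each of 3 libraries a group, with Ly6Cneg drawn above Ly6Chi and Ly6Cint. Falls start from values of 10.92 to 18.85 in the Ly6Chi and Ly6Cint libraries, while many rises start near 3.896, the value of 0 reads.

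Genes of late neutrophil granules led the falls. The 15 largest were Camp, Ltf, Lcn2, Cd177, Ngp, Pglyrp1, Wfdc21, Chil3, Olfm4, Itgb2l, S100a9, S100a8, Cebpe, Chil1 and Lrg1, with smaller differences of 3.92 to 6.30 below the other groups. Of 17 later granule and mature neutrophil genes listed, 16 were lower than in both (background 6.35%, or 20.2% at a level of 8 or more). The list had a median difference of -3.92 against Ly6Chi and -4.44 against Ly6Cint, where all genes tested had medians of 0.243 and 0.174. The other member, Mmp9, a gelatinase gene, was called against Ly6Cint only (adjusted p = 0.0521 against Ly6Chi). Under every alternative that fitted the 3 fractions together, 16 or 17 of the 17 were lower.

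Camp encodes the antimicrobial peptide cathelicidin (ENSMUSG00000038357, chromosome 9, 109847379 to 109849617, minus strand). Its values were 9.99, 11.16 and 9.40 in the Ly6Cneg libraries, against 15.97, 16.13 and 17.35 in the Ly6Chi and 17.12, 16.74 and 17.02 in the Ly6Cint libraries. No Ly6Cneg library came within 4 log2 units of the lowest Ly6C-positive library. The differences were -6.30 ± 0.34 against Ly6Chi (adjusted p = 1.29e-12) and -6.78 ± 0.34 against Ly6Cint (adjusted p = 1.46e-13), or 78.7-fold and 110-fold lower. Ltf encodes the iron-binding protein lactoferrin (ENSMUSG00000032496, chromosome 9, 111019271 to 111042767, plus strand) and had values of 11.13, 12.38 and 10.80 in the Ly6Cneg libraries, against 17.42, 17.002 and 17.93 in the Ly6Chi and 17.68, 17.64 and 17.74 in the Ly6Cint libraries, a difference of -6.01 ± 0.30 against Ly6Chi (adjusted p = 2.73e-13) and -6.25 ± 0.30 against Ly6Cint (adjusted p = 5.77e-14). Lcn2, which encodes the siderophore-binding lipocalin 2 (ENSMUSG00000026822, chromosome 2, 32384633 to 32388252, minus strand), had 11.22, 11.88 and 10.86 in the Ly6Cneg libraries, against 16.38, 16.16 and 16.97 in the Ly6Chi and 16.89, 16.77 and 16.92 in the Ly6Cint libraries. It was 36.4-fold lower than in Ly6Chi and 46.5-fold lower than in Ly6Cint cells, with adjusted p of 1.28e-14 and 1.37e-15. Replicate 2 was the highest of the 3 Ly6Cneg libraries for each of these genes, and replicate 3 the lowest. Ngp, a neutrophil granule protein gene, stood at 12.56, 13.61 and 12.40 in the Ly6Cneg libraries, against 17.95, 17.48 and 18.45 in the Ly6Chi and 18.31, 18.28 and 18.42 in the Ly6Cint libraries. Camp, Ngp and Ltf lie in that order along chromosome 9, between positions 109847379 and 111042767.

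Promoter sequences of these neighbours are shown because the genes fell together. They are RefSeq sequences of build GRCm38.p6, 250 bases before to 50 after the gene start, 5′ to 3′ on the gene's strand. Capitals mark TTNNGNAAT, read on both strands, a loose form of the sequence that C/EBP factors bind, which was chosen after the values were seen.
Ltf (chr9:111019042-111019341, plus strand): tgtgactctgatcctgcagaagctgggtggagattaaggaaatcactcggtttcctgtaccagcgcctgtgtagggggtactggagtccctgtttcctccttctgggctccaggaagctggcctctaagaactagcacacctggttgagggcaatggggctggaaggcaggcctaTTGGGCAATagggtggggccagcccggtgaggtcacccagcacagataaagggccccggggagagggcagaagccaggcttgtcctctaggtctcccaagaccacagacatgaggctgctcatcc
Ngp (chr9:110419558-110419857, plus strand): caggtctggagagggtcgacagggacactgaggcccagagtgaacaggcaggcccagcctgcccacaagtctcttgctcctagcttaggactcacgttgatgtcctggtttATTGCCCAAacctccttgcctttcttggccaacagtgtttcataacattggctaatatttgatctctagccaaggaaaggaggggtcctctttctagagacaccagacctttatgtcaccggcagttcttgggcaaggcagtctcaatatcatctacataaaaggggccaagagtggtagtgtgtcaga
The letters occur in 4 of the 16 later granule promoters found in the table (25%) and in 11.6% of all 27025 promoters. They are absent from the windows of Camp and Lcn2. The core of the interferon-stimulated response element, searched as GAAA, any 2 bases and GAAA on both strands, was in 0 of these 16 promoters and in 3.49% of all. TTTGAA, a core motif of cell-cycle genes, also on both strands, was in 1 of the 16 (6.25%) and in 18.1% of all.

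S100a8 and S100a9, which encode the calprotectin subunits, were among the most abundant RNAs outside Ly6Cneg cells. S100a9 values were 14.17, 14.90 and 13.41 in the Ly6Cneg libraries, against 17.96, 17.86 and 18.71 in the Ly6Chi and 18.85, 18.65 and 18.83 in the Ly6Cint libraries, a difference of -4.02 ± 0.29 and -4.62 ± 0.29. Cebpe, which encodes the C/EBP factor needed for late granules, had 8.52, 9.23 and 8.38 in the Ly6Cneg libraries, against 12.50, 12.04 and 13.41 in the Ly6Chi and 13.43, 13.23 and 13.49 in the Ly6Cint libraries. That was 15.4-fold lower than in Ly6Chi and 25.5-fold lower than in Ly6Cint cells. The neutrophil surface antigen gene Ly6g averaged 7.06 ± 0.37 in Ly6Cneg, 10.64 ± 0.73 in Ly6Chi and 11.46 ± 0.26 in Ly6Cint cells, and the G-CSF receptor gene Csf3r 10.79 ± 0.16 in Ly6Cneg, 11.89 ± 0.59 in Ly6Chi and 13.39 ± 0.29 in Ly6Cint cells. Each of these genes separated the Ly6Cneg libraries from the other 6 with no overlap. Over the whole neutrophil list, the mean value of a library was 10.19 to 10.97 in Ly6Cneg, 13.66 to 14.60 in Ly6Chi and 14.80 to 14.93 in Ly6Cint libraries. No member of the list was at 0 reads in all libraries of a group, and the part of neutrophil precursors in these falls was not tested.

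Primary granule genes were mostly lower than in Ly6Cint but not than in Ly6Chi cells. Of 7 tested, 6 were lower than in Ly6Cint, 1 was lower and 2 were higher than in Ly6Chi, and 1 was lower than in both, Prss57, a serine protease gene at 7.99, 8.40 and 7.85 in the Ly6Cneg libraries, against 8.74, 8.79 and 10.20 in the Ly6Chi and 10.98, 10.55 and 10.81 in the Ly6Cint libraries. The call of Prss57 against Ly6Chi was lost with array weights (adjusted p = 0.0688) and in a fit of only the compared libraries (0.0935). Mpo, which encodes myeloperoxidase, had 13.25, 13.66 and 13.35 in the Ly6Cneg libraries, against 10.95, 10.30 and 12.40 in the Ly6Chi and 14.16, 14.05 and 14.21 in the Ly6Cint libraries. Ly6Cneg thus lay above Ly6Chi (2.20 ± 0.37, adjusted p = 9.56e-05), a call lost in a fit of only the compared libraries (adjusted p = 0.0967), and its difference from Ly6Cint did not pass (-0.72 ± 0.37, adjusted p = 0.156). Elane, the neutrophil elastase gene, had 12.39, 12.94 and 12.17 in the Ly6Cneg libraries, against 11.30, 10.66 and 13.37 in the Ly6Chi and 14.87, 14.59 and 14.78 in the Ly6Cint libraries. It was lower than in Ly6Cint cells (-2.25 ± 0.42, adjusted p = 0.000284), and the difference from Ly6Chi was 0.72 ± 0.42 (adjusted p = 0.217). Ly6Chi libraries spread over more than 2 log2 units for both genes, with replicate 3 the highest. The list median was 0.63 against Ly6Chi and -2.08 against Ly6Cint.

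**Figure D2:**
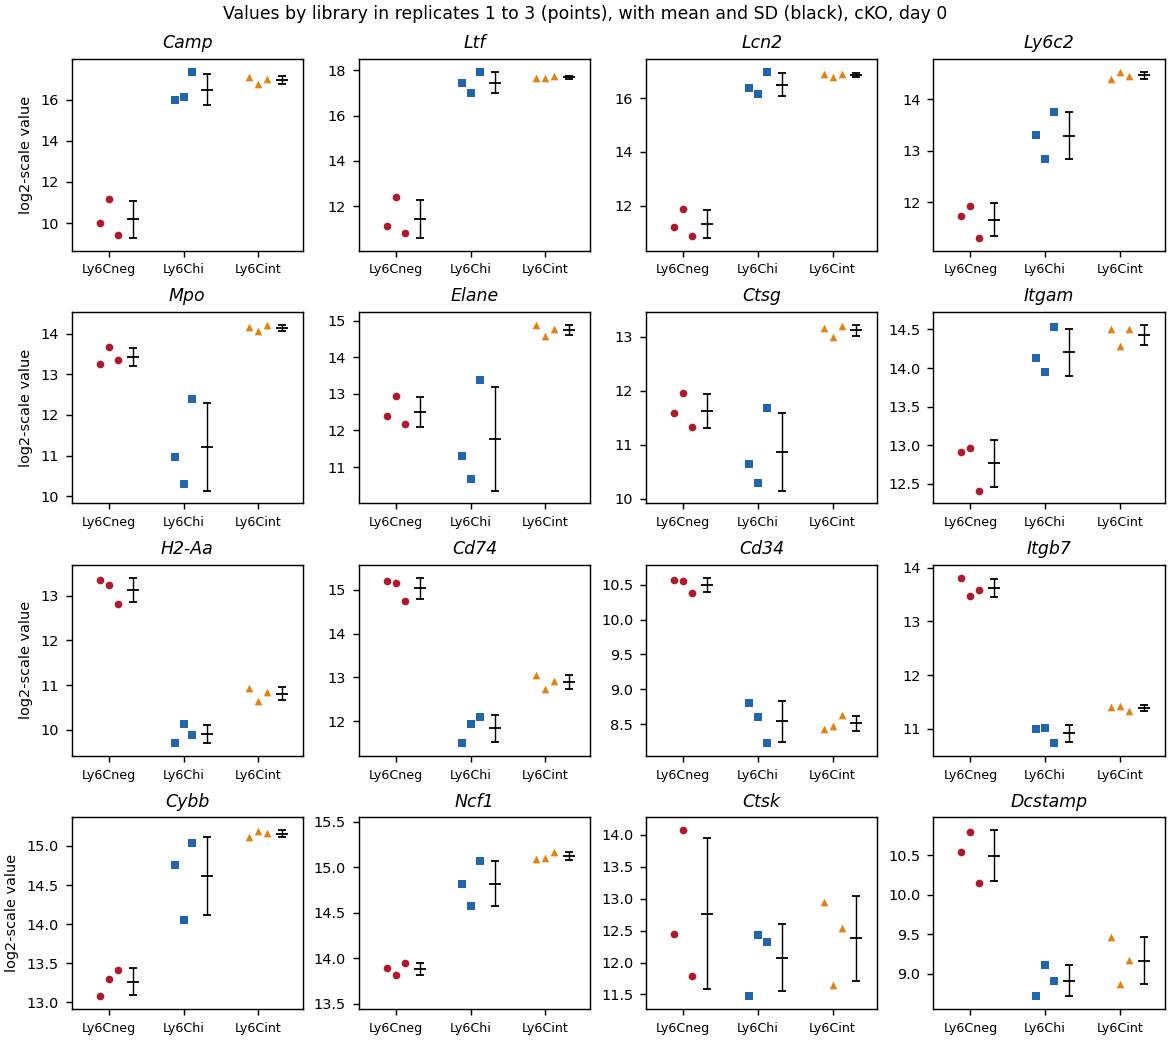
Log2-scale values (y axis, its range set for each gene) of 16 genes in 3 Ly6Cneg, 3 Ly6Chi and 3 Ly6Cint libraries, points in the order of replicates 1 to 3, with the mean and SD in black. The later granule genes Camp, Ltf and Lcn2 are low in Ly6Cneg alone, whereas Mpo, Elane and Ctsg are lowest in Ly6Chi libraries 1 and 2.

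Subunits of the phagocyte NADPH oxidase, which makes the superoxide burst, were all lower. All 6 tested were lower than in both, with list medians of -0.90 and -1.23, and the count was 6 under every alternative that fitted the 3 fractions together. Cybb, which encodes the membrane subunit gp91phox (ENSMUSG00000015340, chromosome X, 9435252 to 9487771, minus strand), had 13.08, 13.30 and 13.41 in the Ly6Cneg libraries, against 14.75, 14.06 and 15.03 in the Ly6Chi and 15.11, 15.19 and 15.17 in the Ly6Cint libraries, a difference of -1.35 ± 0.16 and -1.89 ± 0.16. Its partner Cyba, which encodes p22phox, differed by -0.67 ± 0.17 and -0.72 ± 0.17. Ncf1, the cytosolic p47phox gene, had 13.90, 13.82 and 13.95 in the Ly6Cneg libraries, against 14.82, 14.57 and 15.06 in the Ly6Chi and 15.09, 15.10 and 15.17 in the Ly6Cint libraries. It was 1.91-fold and 2.35-fold lower, and the Ly6Cneg libraries were the lowest 3 for each of these genes. Ncf4, the p40phox gene, differed by -0.69 ± 0.09 and -1.11 ± 0.09, and the GTPase gene Rac2 by -1.03 ± 0.08 and -1.45 ± 0.08. In a fit of only the 6 libraries of Ly6Cneg and Ly6Chi, Cyba lost its call against Ly6Chi (adjusted p = 0.0761), which leaves fewer than 6 called against both when each comparison has its own fit.

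Fc receptors, which bind antibody-coated particles, were lower too. Of 8 tested, 5 fell against both, with list medians of -0.86 and -0.78. Fcgr2b, the inhibitory receptor gene, averaged 9.98 ± 0.12 in Ly6Cneg, 11.32 ± 0.18 in Ly6Chi and 11.34 ± 0.02 in Ly6Cint cells, a difference of -1.33 ± 0.09 and -1.35 ± 0.09. The activating receptor genes Fcgr4 and Fcgr3 differed by -0.89 ± 0.10 and -0.998 ± 0.10 for Fcgr4 and by -0.83 ± 0.14 and -0.85 ± 0.14 for Fcgr3. The Fc receptor-like scavenger gene Fcrls, a member of the same family, differed by -1.96 ± 0.10 and -0.96 ± 0.10. Fcer1g, the signalling chain that the activating receptors share, was the remaining one.

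Chemotactic and inflammatory genes divided. Of 14 chemokine receptors, 4 were lower and 3 higher than in both (background 6.35% and 11.2%). Cxcr2, the neutrophil receptor for ELR chemokines, fell (-1.64 ± 0.17 and -3.10 ± 0.17), and the marrow-retention receptor gene Cxcr4 differed by -1.46 ± 0.12 and -2.26 ± 0.12. Ccr7, which guides dendritic cells to lymph nodes, rose, with values of 9.19, 9.29 and 8.74 in the Ly6Cneg libraries, against 6.06, 6.16 and 5.93 in the Ly6Chi and 6.75, 6.93 and 6.53 in the Ly6Cint libraries. Its Ly6Cneg values were all above 8.7 and all others under 7, a difference of 3.02 ± 0.16 and 2.34 ± 0.16. Ccr2, which draws classical monocytes out of the marrow, rose as well (0.93 ± 0.13 and 0.69 ± 0.13). Of 13 CC chemokines tested, 5 were lower and 2 higher (Ccl5 and Ccl22). All of Ccl2, Ccl3, Ccl4, Ccl6 and Ccl7, which attract monocytes and lymphocytes, were lower, but the call of Ccl7 against Ly6Cint was lost after median centring (adjusted p = 0.0556), after quantile normalization (0.0853) and with array weights (0.0744), and 3 CC chemokines were lower in the fit of 9 libraries. Ccl3 differed by -1.41 ± 0.11 and -1.29 ± 0.11, Ccl4 by -1.85 ± 0.14 and -1.08 ± 0.14 and Ccl6 by -1.91 ± 0.13 and -1.37 ± 0.13. Ccl22, a ligand of Ccr4, rose, with 9.86, 9.41 and 9.05 in the Ly6Cneg libraries, against 6.65, 6.78 and 6.86 in the Ly6Chi and 7.40, 7.09 and 7.32 in the Ly6Cint libraries. Among 13 CXC chemokines, Cxcl12, Cxcl16 and Ppbp were higher and Cxcl2 lower. Only 1 was higher with array weights or in the fit of 9 libraries, and in a fit of only the compared libraries Cxcl2 was not called against Ly6Chi (adjusted p = 0.108). Of 20 inflammatory cytokine and interleukin-1 genes, 4 were lower (Tnf, Osm, Il27 and Tgfb1) and 3 higher (Csf1, Il1r1 and Nos2). The share of higher ones was near the background, and in the fit of 9 libraries limma called 0 higher, with 2 at an unadjusted p under 0.05. Tnf, the inflammatory cytokine gene, averaged 10.40 ± 0.13 in Ly6Cneg, 11.23 ± 0.15 in Ly6Chi and 11.41 ± 0.06 in Ly6Cint cells. Il1b was set apart by Ly6Cint cells, with 7.92, 8.53 and 7.95 in the Ly6Cneg libraries, against 7.11, 7.40 and 9.13 in the Ly6Chi and 11.17, 11.20 and 11.19 in the Ly6Cint libraries, and was called against Ly6Cint only. Nos2 was at 0 reads in the 3 Ly6Chi libraries and low elsewhere.

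Classical monocyte genes were lower in 8 of 16 and higher in 2 of 16, which were Ccr2 and Mcub. Chil3, a chitinase-like gene of marrow monocytes and neutrophils whose close copies may share its reads, had 11.11, 11.82 and 10.86 in the Ly6Cneg libraries, against 15.69, 14.99 and 16.53 in the Ly6Chi and 16.75, 16.69 and 16.80 in the Ly6Cint libraries. Hp, the haptoglobin gene, averaged 11.19 ± 0.25 in Ly6Cneg, 14.29 ± 0.80 in Ly6Chi and 15.49 ± 0.11 in Ly6Cint cells. The members that fell include genes that neutrophils express too, among them Chil3, Hp and Cd177. Genes of non-classical monocytes were no more uniform, with 7 of 18 lower (4 in the fit of 9 libraries) and 3 higher. Nr4a1, the nuclear receptor gene that Ly6C-low monocytes depend on, was lower (-0.83 ± 0.13 and -1.01 ± 0.13), as was the integrin alpha L gene Itgal (-0.97 ± 0.14 and -1.65 ± 0.14). Cx3cr1, the fractalkine receptor gene, had 12.66, 12.63 and 12.81 in the Ly6Cneg libraries, against 12.86, 12.84 and 12.84 in the Ly6Chi and 12.91, 12.97 and 12.90 in the Ly6Cint libraries and was not called against Ly6Chi (adjusted p = 0.198). Its call against Ly6Cint was lost after median centring (adjusted p = 0.0978), after quantile normalization (0.611), without a trended or robust prior (0.068), with array weights (0.0748) and in a fit of only the compared libraries (0.148). Itgax, which encodes CD11c (ENSMUSG00000030789, chromosome 7, 128129547 to 128150657, plus strand), rose, with values of 10.57, 10.65 and 10.94 in the Ly6Cneg libraries, against 8.42, 8.78 and 8.75 in the Ly6Chi and 9.13, 9.18 and 8.93 in the Ly6Cint libraries. The Ly6Cneg libraries all exceeded 10.5 and no other exceeded 9.2, a difference of 2.07 ± 0.10 and 1.64 ± 0.10. Ace, which encodes angiotensin-converting enzyme, also rose (1.31 ± 0.22 and 1.32 ± 0.22), as did the scavenger receptor gene Cd36 (0.44 ± 0.09 and 1.35 ± 0.09), whose call against Ly6Chi was lost with only the compared libraries in the fit.

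Of 24 lineage transcription factor genes, 11 were lower and 3 higher than in both. Lower ones numbered 7 after quantile normalization and 6 in the fit of 9 libraries, where limma called 0 higher, with 3 at an unadjusted p under 0.05, and 0 higher without Ly6Cneg replicate 1, with 4 at an unadjusted p under 0.05. The lower ones included Spi1, which encodes PU.1 (-0.34 ± 0.08 and -0.54 ± 0.08), Cebpa (-0.31 ± 0.07 and -0.31 ± 0.07), Cebpd (-1.49 ± 0.16 and -2.17 ± 0.16) and Gfi1, a granulocyte repressor gene (-1.27 ± 0.24 and -2.41 ± 0.24). The 3 higher ones were Klf4, a monocyte factor gene (1.03 ± 0.11 and 0.40 ± 0.11), Egr2 and Batf3. The call of Cebpa was lost against both after quantile normalization (adjusted p = 0.413 and 0.233) and that of Spi1 against Ly6Chi (0.191), and both were lost against Ly6Chi in a fit of only the compared libraries (0.171 and 0.20). Of 9 interferon regulatory factors, Irf4 (0.54 ± 0.13 and 0.69 ± 0.13) and Irf5 (0.50 ± 0.08 and 0.63 ± 0.08) were higher and Irf1 (-0.25 ± 0.08 and -0.29 ± 0.08) lower. In a fit of only the compared libraries none of these 3 was called against Ly6Chi (adjusted p = 0.0916 for Irf4, 0.0691 for Irf5 and 0.303 for Irf1). With array weights Irf4 (0.052) and Irf1 (0.102) were not called against Ly6Chi, and after quantile normalization Irf1 was called against neither (0.193 and 0.0914). Among 18 AP-1 and immediate early genes, 5 were lower and 3 higher (3 and 1 in the fit of 9 libraries), among them the heat shock gene Hsph1 (0.85 ± 0.10 and 0.73 ± 0.10). Egr1, which many stimuli induce, had 8.12, 8.44 and 7.89 in the Ly6Cneg libraries, against 8.97, 8.56 and 11.54 in the Ly6Chi and 11.12, 10.96 and 10.94 in the Ly6Cint libraries. Ly6Chi libraries differed among themselves for Egr1, replicate 3 lying above the Ly6Cint libraries, and its call against Ly6Chi was lost in a fit of only the compared libraries (adjusted p = 0.386). Of 30 type I interferon-stimulated genes, 7 were lower (4 with array weights) and 1 higher, and medians were -0.18 and -0.19. The transport factor gene Rtp4 averaged 9.54 ± 0.35 in Ly6Cneg, 10.82 ± 0.25 in Ly6Chi and 10.45 ± 0.14 in Ly6Cint cells. The antiviral gene Ifit3 averaged 7.48 in Ly6Cneg, 7.38 in Ly6Chi and 7.50 in Ly6Cint cells, and Rsad2, another, 8.21 in Ly6Cneg, 8.11 in Ly6Chi and 7.95 in Ly6Cint cells. Neither was called. Of 20 interferon-gamma-inducible genes, 4 were lower and 2 higher, Gbp4 and Nlrc5, and medians were -0.07 and 0.00. Only 1 was lower after median centring, after quantile normalization, with array weights and in the fit of 9 libraries. Gbp4 lost its calls without a trended or robust prior (adjusted p = 0.0554 and 0.0604), and Nlrc5 its call against Ly6Chi with array weights (0.231) and in a fit of only the compared libraries (0.112).

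**Figure D3:**
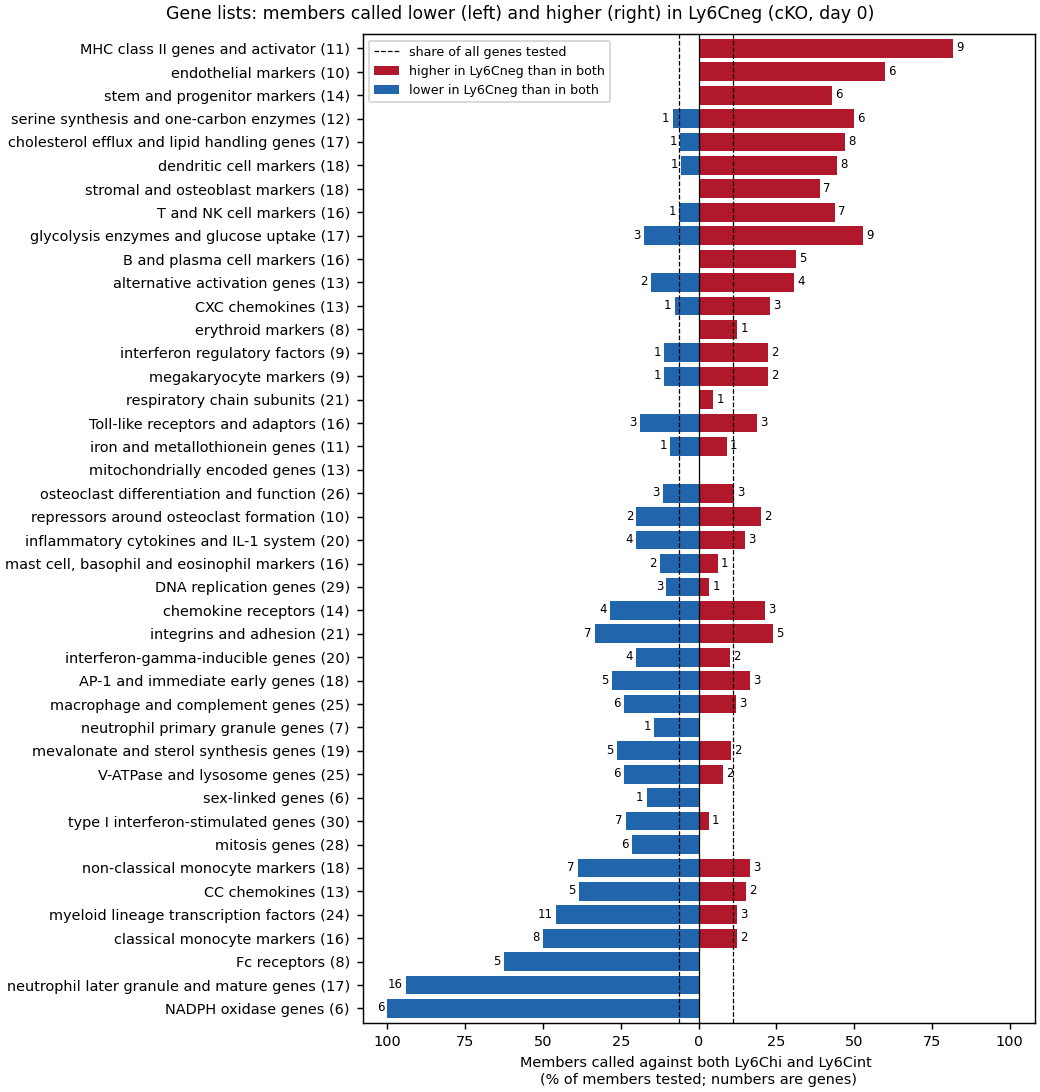
Share of tested members (x axis, %; number tested in brackets) of 42 gene lists called higher (right, red) or lower (left, blue) in Ly6Cneg than in both Ly6Chi and Ly6Cint cells, with the number of genes at each bar. Dashed lines give the share over all genes tested, 11.2% higher and 6.35% lower. MHC class II stands at the top with 9 of 11 higher, and NADPH oxidase (6 of 6) and later neutrophil granule genes (16 of 17) at the bottom.

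MHC class II had the highest share of risen genes among the 42 lists. Of 11 genes tested, 9 were higher than in both (background 11.2%), with a median difference of 2.12 against Ly6Chi and 1.76 against Ly6Cint, and the count was 7 to 10 over the alternatives that fitted the 3 fractions together. H2-Aa, which encodes the alpha chain of I-A (ENSMUSG00000036594, chromosome 17, 34282744 to 34287823, minus strand), had values of 13.35, 13.24 and 12.82 in the Ly6Cneg libraries, against 9.70, 10.12 and 9.88 in the Ly6Chi and 10.93, 10.64 and 10.83 in the Ly6Cint libraries. Ly6Cneg values lay above 12.8 and all others under 11, so the groups did not overlap, and Ly6Cint lay above Ly6Chi. The difference was 3.23 ± 0.12 against Ly6Chi (adjusted p = 8.28e-21) and 2.33 ± 0.12 against Ly6Cint (adjusted p = 2.61e-17), or 9.4-fold and 5.04-fold higher. H2-Eb1, the beta chain of I-E (ENSMUSG00000060586, chromosome 17, 34305867 to 34316674, plus strand), had 12.94, 12.94 and 12.39 in the Ly6Cneg libraries, against 9.50, 10.02 and 9.79 in the Ly6Chi and 10.79, 10.40 and 10.69 in the Ly6Cint libraries, a difference of 2.99 ± 0.12 against Ly6Chi (adjusted p = 7.02e-19) and 2.13 ± 0.12 against Ly6Cint (adjusted p = 1.36e-15). Cd74, the invariant chain that escorts class II molecules, had 15.20, 15.15 and 14.75 in the Ly6Cneg libraries, against 11.50, 11.94 and 12.09 in the Ly6Chi and 13.04, 12.73 and 12.91 in the Ly6Cint libraries. It differed by 3.19 ± 0.12 and 2.14 ± 0.12. Ciita, the transactivator gene, had 9.59, 9.56 and 9.64 in the Ly6Cneg libraries, against 6.99, 7.58 and 7.47 in the Ly6Chi and 8.30, 7.66 and 7.56 in the Ly6Cint libraries, and differed by 2.25 ± 0.15 and 1.76 ± 0.15. For these 4 genes every Ly6Cneg library lay above every other, and Ly6Cint and Ly6Chi libraries overlapped only for Ciita. H2-Ob, a chain of the DO modulator, differed by 2.12 ± 0.33 and 1.99 ± 0.33. Its partner H2-Oa passed against Ly6Chi (0.90 ± 0.17, adjusted p = 8.56e-05) and narrowly missed against Ly6Cint (0.42 ± 0.17, adjusted p = 0.053). H2-DMb2 was called against neither.

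Promoters of a pair of these genes are shown, since class II promoters are known to carry a Y box with the letters CCAAT. Capitals mark CCAAT or its reverse complement, and sequences are RefSeq, GRCm38.p6, with the same bounds as above.
H2-Aa (chr17:34287774-34288073, minus strand): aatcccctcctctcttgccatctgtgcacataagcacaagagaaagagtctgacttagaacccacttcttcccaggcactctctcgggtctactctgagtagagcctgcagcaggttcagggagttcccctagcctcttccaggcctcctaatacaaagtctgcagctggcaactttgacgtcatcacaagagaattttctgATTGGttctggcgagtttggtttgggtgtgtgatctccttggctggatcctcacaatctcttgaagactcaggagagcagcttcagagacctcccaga
H2-Eb1 (chr17:34305617-34305916, plus strand): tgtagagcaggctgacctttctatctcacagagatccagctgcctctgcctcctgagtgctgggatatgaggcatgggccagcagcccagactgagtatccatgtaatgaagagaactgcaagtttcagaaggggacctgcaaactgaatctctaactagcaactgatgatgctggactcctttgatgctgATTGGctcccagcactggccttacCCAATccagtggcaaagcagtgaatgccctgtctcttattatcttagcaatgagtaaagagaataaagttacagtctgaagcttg
The letters were in 7 of the 8 class II promoters in the table (87.5%), in 9 of the 16 later granule promoters (56.2%) and in 37.9% of all promoters. TTNNGNAAT was in 1 of the 8 (12.5%). A match describes these letters and is not a bound site.

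Dendritic cell genes were higher in 8 of 18 and lower in 1, with medians of 0.65 and 0.38. Fscn1, which encodes the actin bundler fascin of mature dendritic cells, had 9.81, 9.76 and 9.68 in the Ly6Cneg libraries, against 6.49, 6.49 and 6.52 in the Ly6Chi and 7.08, 7.11 and 7.01 in the Ly6Cint libraries. Its difference was 3.25 ± 0.13 and 2.68 ± 0.13, with no overlap. Flt3, the cytokine receptor gene of dendritic precursors, differed by 1.34 ± 0.23 and 1.18 ± 0.23, and Zbtb46, a factor gene of conventional dendritic cells, by 1.39 ± 0.14 and 1.01 ± 0.14. Siglech, a plasmacytoid marker, had 8.14, 7.60 and 7.76 in the Ly6Cneg libraries, against 5.97, 6.09 and 5.39 in the Ly6Chi and 6.75, 6.48 and 5.87 in the Ly6Cint libraries. Batf3, Ccr7, Clec4a4 and Klrd1 were the other members higher than in both. Cd24a, which granulocytes share, was the member that fell, at -1.70 ± 0.10 and -2.14 ± 0.10. Over the list, library means were 8.41 to 8.59 in Ly6Cneg, 7.54 to 7.79 in Ly6Chi and 7.74 to 8.06 in Ly6Cint libraries. The part of dendritic cells in the class II rise was not tested.

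Itgb7, the integrin beta 7 gene (ENSMUSG00000001281, chromosome 15, 102215995 to 102231944, minus strand), had the smallest adjusted p against Ly6Chi of the genes named. Its values were 13.81, 13.48 and 13.57 in the Ly6Cneg libraries, against 11.01, 11.02 and 10.73 in the Ly6Chi and 11.41, 11.43 and 11.33 in the Ly6Cint libraries, a difference of 2.70 ± 0.08 against Ly6Chi (adjusted p = 3.29e-24) and 2.23 ± 0.08 against Ly6Cint (adjusted p = 8.58e-22). Among 21 integrin and adhesion genes, 5 were higher (Itgb7, Itgax, Itga3, Itga5 and Itgav) and 7 lower (3 and 4 in the fit of 9 libraries). Arg1, the urea-cycle enzyme of alternatively activated macrophages (ENSMUSG00000019987, chromosome 10, 24915221 to 24927484, minus strand), had 12.06, 11.56 and 11.64 in the Ly6Cneg libraries, against 8.06, 8.75 and 8.34 in the Ly6Chi and 9.23, 8.33 and 9.08 in the Ly6Cint libraries. It was 10.3-fold higher than in Ly6Chi and 7.33-fold higher than in Ly6Cint cells, with adjusted p of 2.15e-10 and 2.13e-09. Of 13 alternative activation genes, 4 were higher (Arg1, Ccl22, Socs2 and Clec10a) and 2 lower (Ear2 and Il4ra), or 4 and 1 in the fit of 9 libraries. The angiopoietin-like gene Angptl2 had 11.84, 11.68 and 11.86 in the Ly6Cneg libraries, against 9.06, 8.99 and 8.81 in the Ly6Chi and 9.29, 9.22 and 9.21 in the Ly6Cint libraries. Its Ly6Cneg libraries lay above all others, a difference of 2.84 ± 0.09 and 2.55 ± 0.09. Ccn2, a matrix-associated growth factor gene, had 9.37, 9.85 and 9.07 in the Ly6Cneg libraries, against 3.896, 5.42 and 5.79 in the Ly6Chi and 6.45, 5.91 and 6.05 in the Ly6Cint libraries. Myl9, a smooth muscle light chain gene, was of lower level, with 7.51, 7.83 and 6.90 in the Ly6Cneg libraries, against 3.896, 4.90 and 3.896 in the Ly6Chi and 4.74, 3.896 and 5.24 in the Ly6Cint libraries. Pnmal2, Hcar1 and Mog were at 0 reads in all 6 other libraries, so no fold is given. Their Ly6Cneg values were 6.37, 7.24 and 7.001 for Pnmal2, 6.37, 6.97 and 6.72 for Hcar1, which encodes the lactate receptor, and 6.43, 6.47 and 6.37 for Mog, a myelin gene. Kcnv2, Hspb1, S100a16 and Cd7, also among the 15 largest rises, were under 8 in each library.

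Immunoglobulin RNAs led the rises. Ighg1, a heavy chain gene, had 9.29, 10.02 and 8.42 in the Ly6Cneg libraries, against 4.92, 4.90 and 3.896 in the Ly6Chi and 5.21, 5.49 and 4.92 in the Ly6Cint libraries. Igkc, the kappa light chain gene, had 9.16, 9.64 and 8.03 in the Ly6Cneg libraries, against 4.92, 5.42 and 5.79 in the Ly6Chi and 5.67, 5.49 and 5.45 in the Ly6Cint libraries. All Ly6Cneg libraries exceeded all others, and the differences were 4.67 ± 0.60 and 4.04 ± 0.60 for Ighg1 and 3.57 ± 0.37 and 3.40 ± 0.37 for Igkc. Constant-region genes resemble each other, so the counts of Ighg1 are uncertain. Of 16 B and plasma cell genes, 5 were higher than in both, among them Igkc, Mzb1, Jchain and Sdc1, with medians of 0.78 and 0.49. Jchain, which joins IgA and IgM polymers, had 7.21, 7.88 and 6.75 in the Ly6Cneg libraries, against 5.46, 6.16 and 3.896 in the Ly6Chi and 4.74, 4.95 and 5.87 in the Ly6Cint libraries. The heavy chain gene Igha averaged 4.89 in Ly6Cneg, 5.29 in Ly6Chi and 5.22 in Ly6Cint cells and was not called, and Ms4a1, Pax5 and Ebf1, markers of B cells, were not called against either group. Mzb1 was at 0 reads in all Ly6Chi libraries. Library means over the list were 7.05 to 7.67 in Ly6Cneg, 6.11 to 6.59 in Ly6Chi and 6.33 to 6.73 in Ly6Cint libraries. The part of plasma cells in these rises was not tested.

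Marker genes of several other cell types were higher in part. Of 16 T and NK cell genes, 7 were higher and 1, Cd3d, lower, at 6.02, 6.47 and 6.06 in the Ly6Cneg libraries, against 8.70, 8.93 and 8.88 in the Ly6Chi and 8.95, 8.62 and 8.79 in the Ly6Cint libraries. Higher ones numbered 3 after quantile normalization, 2 with array weights, 1 in the fit of 9 libraries and 4 without Ly6Chi replicate 3. Il7r, the interleukin-7 receptor gene, was the abundant member, with 11.46, 11.20 and 11.50 in the Ly6Cneg libraries, against 9.92, 9.99 and 9.34 in the Ly6Chi and 9.53, 9.57 and 9.41 in the Ly6Cint libraries and a difference of 1.64 ± 0.11 and 1.89 ± 0.11. Library means were 6.22 to 6.40 in Ly6Cneg, 5.44 to 5.92 in Ly6Chi and 5.63 to 6.24 in Ly6Cint libraries, and Gzmb was at 0 reads in all 6 Ly6C-positive libraries. Of 14 stem and progenitor genes, 6 were higher, led by Cd34 (ENSMUSG00000016494, chromosome 1, 194938819 to 194961279, plus strand), the sialomucin gene of progenitors, with 10.56, 10.55 and 10.39 in the Ly6Cneg libraries, against 8.80, 8.60 and 8.23 in the Ly6Chi and 8.43, 8.47 and 8.63 in the Ly6Cint libraries. Its difference was 1.96 ± 0.13 and 1.99 ± 0.13, and Procr, the protein C receptor gene, differed by 1.02 ± 0.09 and 1.07 ± 0.09. Sox4, Flt3, Hoxa9 and Meis1 were the other 4, while the stem cell factor receptor gene Kit was not called against Ly6Chi and was lower than in Ly6Cint cells (-1.01 ± 0.14). Library means over the list were 7.94 to 8.12 in Ly6Cneg, 7.27 to 7.51 in Ly6Chi and 7.64 to 7.90 in Ly6Cint libraries.

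Of 18 stromal and osteoblast genes, 7 were higher. Sparc, the osteonectin gene, had 9.26, 8.99 and 9.36 in the Ly6Cneg libraries, against 6.76, 7.10 and 6.46 in the Ly6Chi and 7.06, 6.43 and 7.25 in the Ly6Cint libraries. Col1a2, a collagen I chain gene, differed by 2.15 ± 0.27 and 2.13 ± 0.27, with no overlap between Ly6Cneg and other libraries. Sp7, the osteoblast factor gene, stood at 6.87, 6.94 and 7.21 in Ly6Cneg libraries, under 6 in all others. Library means over that list were 7.11 to 7.18 in Ly6Cneg, 5.77 to 6.27 in Ly6Chi and 5.85 to 6.62 in Ly6Cint libraries. Endothelial genes were higher in 6 of 10, namely Cldn5, Sox17, Cdh5, Esam, Kdr and Eng. The count depended on the fit, being 3 after quantile normalization, 2 with array weights and 3 without Ly6Chi replicate 3, Ly6Cint replicate 3, Ly6Cneg replicate 2 or Ly6Cneg replicate 3. In the fit of 9 libraries limma called 0 higher than in both, with 5 at an unadjusted p under 0.05. Library means over the list were 7.18 to 7.21 in Ly6Cneg, 6.16 to 6.56 in Ly6Chi and 6.41 to 6.69 in Ly6Cint libraries, and Cldn5 was at 0 reads in all Ly6Chi libraries. Erythroid genes were higher in 1 of 8 (Hbb-bs, whose reads near-identical globin copies share), megakaryocyte genes higher in 2 of 9 (Vwf and Ppbp) and lower in 1 (Gp1ba), and mast cell, basophil and eosinophil genes higher in 1 of 16 (Prss34) and lower in 2 (Hdc and Ear1). The calls of Hbb-bs (adjusted p = 0.337 and 0.194 after quantile normalization), Ppbp (0.124), Gp1ba (0.0918) and Prss34 (0.068 and 0.113 with array weights) were not stable, those of Ppbp and Gp1ba being lost against Ly6Chi in a fit of only the compared libraries. The parts of these cell types in the rises were not tested.

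Macrophage genes showed mixed changes. Of 25 tested, 3 were higher (Axl, Hmox1 and C1qb) and 6 lower. In a fit of only the compared libraries, C1qb was called against neither (adjusted p = 0.102 and 0.268) and Hmox1 not against Ly6Chi (0.0732). Axl, a receptor for apoptotic cells (ENSMUSG00000002602, chromosome 7, 25757273 to 25788705, minus strand), had 10.79, 10.59 and 10.83 in the Ly6Cneg libraries, against 8.16, 8.41 and 8.01 in the Ly6Chi and 8.95, 8.82 and 8.93 in the Ly6Cint libraries. Its difference was 2.54 ± 0.10 against Ly6Chi (adjusted p = 8.28e-21) and 1.83 ± 0.10 against Ly6Cint (adjusted p = 4.95e-17). Apoe, the apolipoprotein E gene, was the most abundant member and fell, with 14.95, 15.38 and 14.69 in the Ly6Cneg libraries, against 16.87, 17.34 and 17.05 in the Ly6Chi and 16.35, 16.24 and 16.25 in the Ly6Cint libraries, a difference of -2.08 ± 0.13 against Ly6Chi (adjusted p = 1.33e-12) and -1.28 ± 0.13 against Ly6Cint (adjusted p = 1.05e-08). Marco and Lyve1, scavenger and hyaluronan receptor genes, fell (-1.79 ± 0.16 and -0.96 ± 0.16 for Marco and -1.48 ± 0.24 and -1.59 ± 0.24 for Lyve1), as did the factor gene Maf (-1.37 ± 0.08 and -0.58 ± 0.08). Of 17 cholesterol and lipid handling genes, 8 were higher and 1, Apoe, lower, with medians of 0.25 and 0.65, and 5 were higher in the fit of 9 libraries. Pparg, the lipid-sensing receptor gene, had 10.71, 10.76 and 10.49 in the Ly6Cneg libraries, against 9.54, 9.94 and 9.49 in the Ly6Chi and 9.09, 9.30 and 9.03 in the Ly6Cint libraries. Fabp4, a fatty acid carrier gene and known Pparg target, averaged 8.61 ± 0.24 in Ly6Cneg, 7.71 ± 0.32 in Ly6Chi and 7.39 ± 0.03 in Ly6Cint cells. Npc1, the cholesterol exporter of lysosomes, differed by 0.76 ± 0.21 and 0.87 ± 0.21, but not past the threshold against Ly6Chi in a fit of only the compared libraries (adjusted p = 0.066).

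Glycolytic genes were higher in 9 of 17 and lower in 3, with medians of 0.40 and 0.38, or 5 and 1 in the fit of 9 libraries. The glucose transporter gene Slc2a1 had 12.75, 12.33 and 12.56 in the Ly6Cneg libraries, against 11.84, 11.94 and 11.14 in the Ly6Chi and 11.44, 11.42 and 11.48 in the Ly6Cint libraries, and differed by 0.91 ± 0.11 and 1.10 ± 0.11. Its relative Slc2a3 went the other way, with 10.72, 10.71 and 10.85 in the Ly6Cneg libraries, against 12.30, 11.60 and 12.19 in the Ly6Chi and 12.49, 12.86 and 12.67 in the Ly6Cint libraries. Ldha, the lactate dehydrogenase gene, differed by 0.58 ± 0.11 and 1.05 ± 0.11 and Pfkp, a phosphofructokinase gene, by 0.68 ± 0.10 and 0.84 ± 0.10. The call of each of these last 2 genes against Ly6Chi was lost when the fit held only the compared libraries. Hexokinase genes divided too, Hk1 being higher and Hk2 and Hk3 lower. Of 12 serine synthesis and one-carbon genes, 6 were higher (2 in the fit of 9 libraries) and 1 lower (Chac1). In that fit, and with array weights, limma called 0 lower, with 1 at an unadjusted p under 0.05. Shmt2, the mitochondrial serine hydroxymethyltransferase gene, differed by 0.52 ± 0.08 and 0.54 ± 0.08, and its call against Ly6Chi was lost in a fit of only the compared libraries (adjusted p = 0.0669). Of 19 sterol synthesis genes, 5 were lower and 2 higher, with medians of -0.17 and -0.13. Lower ones numbered 1 after median centring, after quantile normalization and with array weights, and 2 without a trended or robust prior. In the fit of 9 libraries limma called 0 lower, with 2 at an unadjusted p under 0.05. Sqle, the squalene epoxidase gene, was among the higher ones, but its call against Ly6Chi was lost with array weights (adjusted p = 0.0976), without a trended or robust prior (0.0516) and in a fit of only the compared libraries (0.288).

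Osteoclast genes as a list did not separate the fractions at day 0. Of 26 tested, 3 were higher and 3 lower than in both, near the background, with medians of 0.20 and 0.22. Higher ones numbered 5 after median centring and 6 after quantile normalization. Dcstamp, the fusion receptor gene of osteoclast precursors, had 10.54, 10.79 and 10.15 in the Ly6Cneg libraries, against 8.72, 9.11 and 8.91 in the Ly6Chi and 9.46, 8.87 and 9.17 in the Ly6Cint libraries. Its difference was 1.58 ± 0.16 against Ly6Chi (adjusted p = 2.46e-08) and 1.33 ± 0.16 against Ly6Cint (adjusted p = 3.09e-07). Atp6v0d2, a proton pump subunit gene also needed for fusion, had 11.03, 11.68 and 10.57 in the Ly6Cneg libraries, against 9.86, 10.28 and 9.88 in the Ly6Chi and 10.32, 9.57 and 10.10 in the Ly6Cint libraries, and differed by 1.09 ± 0.19 and 1.10 ± 0.19, and its call against Ly6Cint was lost in a fit of only the compared libraries (adjusted p = 0.0762). Clcn7, the chloride exchanger gene, was the third. The adaptor gene Tyrobp (-0.68 ± 0.13 and -0.78 ± 0.13), the AP-1 partner gene Jdp2 (-0.63 ± 0.11 and -1.17 ± 0.11) and Ostm1 were lower. In fits of only the compared libraries Tyrobp (adjusted p = 0.0603) and Jdp2 (0.0645) were not called against Ly6Chi. Ctsk, which encodes the collagenase cathepsin K, had 12.45, 14.07 and 11.79 in the Ly6Cneg libraries, against 11.47, 12.43 and 12.32 in the Ly6Chi and 12.94, 11.64 and 12.55 in the Ly6Cint libraries. The acid phosphatase gene Acp5 had 11.84, 13.46 and 11.06 in the Ly6Cneg libraries, against 11.22, 12.03 and 11.84 in the Ly6Chi and 12.35, 11.21 and 12.03 in the Ly6Cint libraries. Replicate 2 was the highest Ly6Cneg library for both genes, the groups overlapped, and neither was called. Tnfrsf11a, which encodes the RANKL receptor RANK, averaged 11.71 ± 0.41 in Ly6Cneg, 11.43 ± 0.25 in Ly6Chi and 11.12 ± 0.16 in Ly6Cint cells. Tnfrsf11b, the decoy receptor osteoprotegerin, stood at 6.66, 6.53 and 6.80 in Ly6Cneg libraries and at 0 reads in 5 of the 6 others. Nfatc1, the master factor gene of osteoclasts, averaged 10.72 in Ly6Cneg, 10.56 in Ly6Chi and 10.87 in Ly6Cint cells and was not called. Among 10 repressor genes of osteoclast formation, Rbpj (0.36 ± 0.12 and 0.58 ± 0.12) and Eomes were higher and Id1 (-1.11 ± 0.18 and -0.95 ± 0.18) and Ldb1 (-0.34 ± 0.07 and -0.27 ± 0.07) lower. The call of Rbpj against Ly6Chi was lost without a trended or robust prior (adjusted p = 0.0589) and in a fit of only the compared libraries (0.258), and Ldb1 was called against neither after quantile normalization (0.0735 and 0.203) or in fits of only the compared libraries (0.137 and 0.0866).

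Of 28 mitosis genes, 6 were lower than in both (background 6.35%, or 20.2% at a level of 8 or more), with medians of -0.16 and -0.07. Lower ones numbered 2 after quantile normalization and 3 in the fit of 9 libraries. Ccnb2, the cyclin B2 gene, differed by -0.51 ± 0.08 and -0.35 ± 0.08 and Ube2c, of the mitotic exit machinery, by -0.61 ± 0.10 and -0.36 ± 0.10, and after quantile normalization neither was called against Ly6Cint (adjusted p = 0.105 and 0.169). Mki67, the proliferation marker, averaged 13.64 ± 0.44 in Ly6Cneg, 13.59 ± 0.21 in Ly6Chi and 13.62 ± 0.08 in Ly6Cint cells and was not called. Of 29 replication genes, 3 were lower (Pclaf, Rrm2 and Rfc3) and 1 higher (Fen1), but 6 were higher after quantile normalization. In fits of only the compared libraries, none of these 4 was called against Ly6Chi (adjusted p = 0.0679 for Pclaf, 0.0993 for Rrm2, 0.205 for Rfc3 and 0.24 for Fen1). Of 25 proton pump and lysosome genes, 6 were lower and 2 higher (Ctsl and Ctsz), against 20.2% lower and 12.2% higher among all genes at a level of 8 or more. Lower ones numbered 2 after quantile normalization, with 6 higher, and 1 in the fit of 9 libraries. In the latter fit limma called 0 higher, with 2 at an unadjusted p under 0.05. Of 16 Toll-like receptor genes 3 were lower and 3 higher, near those shares, and 1 was lower in the fit of 9 libraries. Tlr9, the receptor for unmethylated DNA, had 7.89, 8.04 and 8.53 in the Ly6Cneg libraries, against 7.17, 7.04 and 6.68 in the Ly6Chi and 7.24, 7.33 and 6.96 in the Ly6Cint libraries. Tlr2, the lipopeptide receptor, had 10.72, 10.84 and 10.65 in the Ly6Cneg libraries, against 11.75, 11.33 and 10.92 in the Ly6Chi and 11.61, 11.68 and 11.75 in the Ly6Cint libraries. For both genes the Ly6Cneg libraries lay outside the range of the others, above it for Tlr9 and below it for Tlr2, whose call against Ly6Chi was lost in a fit of only the compared libraries (adjusted p = 0.0846). Iron genes comprised 1 higher, Hmox1 (0.55 ± 0.09 and 1.07 ± 0.09), and 1 lower, the exporter gene Slc40a1 (-0.99 ± 0.08 and -0.56 ± 0.08), of 11. Of 21 respiratory chain genes, 1 was higher, Sdha (0.27 ± 0.07 and 0.43 ± 0.07), whose call against Ly6Chi was lost in a fit of only the compared libraries (adjusted p = 0.265), and 3 were higher after quantile normalization. Mitochondrially encoded genes had medians of -0.54 and 0.03, and the median against Ly6Chi was -0.05 without Ly6Chi replicate 1.

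The Ly6Cneg differences of libraries labelled cKO were then set against those of WT libraries in the same fit. The difference between the differences was called for 6953 genes against Ly6Chi (17.9% of those tested), 56.7% of them positive, or 72.9% after median centring, and for 5397 against Ly6Cint (13.9%). Libraries labelled cKO had Ddx3y values of 10.43 to 10.86 and WT group means were 5.23 to 6.12, so genotype label and mix of sexes cannot be told apart here. In WT, Ly6c2 stood at 12.48 and 12.03 in Ly6Cneg, 9.86, 9.82 and 9.98 in Ly6Chi and 13.47, 13.53 and 13.62 in Ly6Cint cells. The WT Ly6Cneg libraries therefore had more Ly6c2 RNA than the WT Ly6Chi libraries, unlike those labelled cKO, and the interaction was -3.99 ± 0.29 (adjusted p = 3.71e-11).

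Arg1 stood above the other fractions in Ly6Cneg libraries of both labels, by more in WT. It had 12.06, 11.56 and 11.64 in Ly6Cneg libraries labelled cKO, and 15.50 and 15.65 in WT Ly6Cneg libraries, where Ly6Chi had 7.68, 8.47 and 7.89 and Ly6Cint 7.15, 6.82 and 7.23. The interactions were -4.19 ± 0.38 against Ly6Chi and -5.63 ± 0.38 against Ly6Cint (adjusted p = 1.47e-11). Primary granule genes had interactions of the same sign against Ly6Cint. Mpo averaged 13.42 in Ly6Cneg libraries labelled cKO, and in WT had 14.50 and 14.23 in Ly6Cneg, 7.55, 7.82 and 7.60 in Ly6Chi and 8.71, 8.17 and 8.49 in Ly6Cint libraries, an interaction of -6.63 ± 0.55 against Ly6Cint. Elane, Ctsg and Prtn3, all proteases of these granules, had interactions of -5.93 ± 0.64, -5.85 ± 0.41 and -5.68 ± 0.52. The eosinophil-associated ribonuclease gene Rnase2a was at 7.72, 8.43 and 7.42 in Ly6Cneg libraries labelled cKO and at 12.71 and 12.84 in WT Ly6Cneg libraries. Close copies in its gene family may share its reads.

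The reverse pattern held for Axl and Cx3cr1. Axl was higher in Ly6Cneg cells labelled cKO, and in WT it was lower, with 10.18 and 10.33 in Ly6Cneg, 12.59, 12.23 and 12.54 in Ly6Chi and 14.46, 14.58 and 14.65 in Ly6Cint libraries (interactions 4.75 ± 0.15 and 6.14 ± 0.15). Cx3cr1 differed by -0.14 ± 0.08 from Ly6Chi in cells labelled cKO, whereas WT Ly6Cneg libraries had 8.03 and 8.01, against 12.15, 12.06 and 12.16 in Ly6Chi (interaction 3.96 ± 0.12). All 6 of the largest positive interactions against Ly6Cint were interferon-inducible genes. Ifit3 had 7.45, 8.001 and 6.98 in Ly6Cneg and 7.99, 6.98 and 7.53 in Ly6Cint libraries labelled cKO, but 6.80 and 7.14 in Ly6Cneg and 13.87, 13.90 and 14.01 in Ly6Cint WT libraries, an interaction of 6.93 ± 0.40 (adjusted p = 1.39e-12). Irf7, which amplifies the interferon response, had an interaction of 6.16 ± 0.30.

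The granule gene Camp was lower in Ly6Cneg libraries under both labels. In WT, Camp had 9.74 and 9.47 in Ly6Cneg, 11.83, 12.60 and 12.56 in Ly6Chi and 15.01, 14.96 and 14.81 in Ly6Cint libraries. The interaction was -3.57 ± 0.51 against Ly6Chi (adjusted p = 1.05e-05) and did not pass against Ly6Cint (-1.45 ± 0.51, adjusted p = 0.062). The class II gene H2-Aa was higher in Ly6Cneg libraries under both labels. It had 15.27 and 15.19 in WT Ly6Cneg, 13.10, 12.89 and 13.24 in WT Ly6Chi and 14.67, 14.77 and 14.73 in WT Ly6Cint libraries, and the interactions were 1.08 ± 0.18 and 1.83 ± 0.18.

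**Figure D4:**
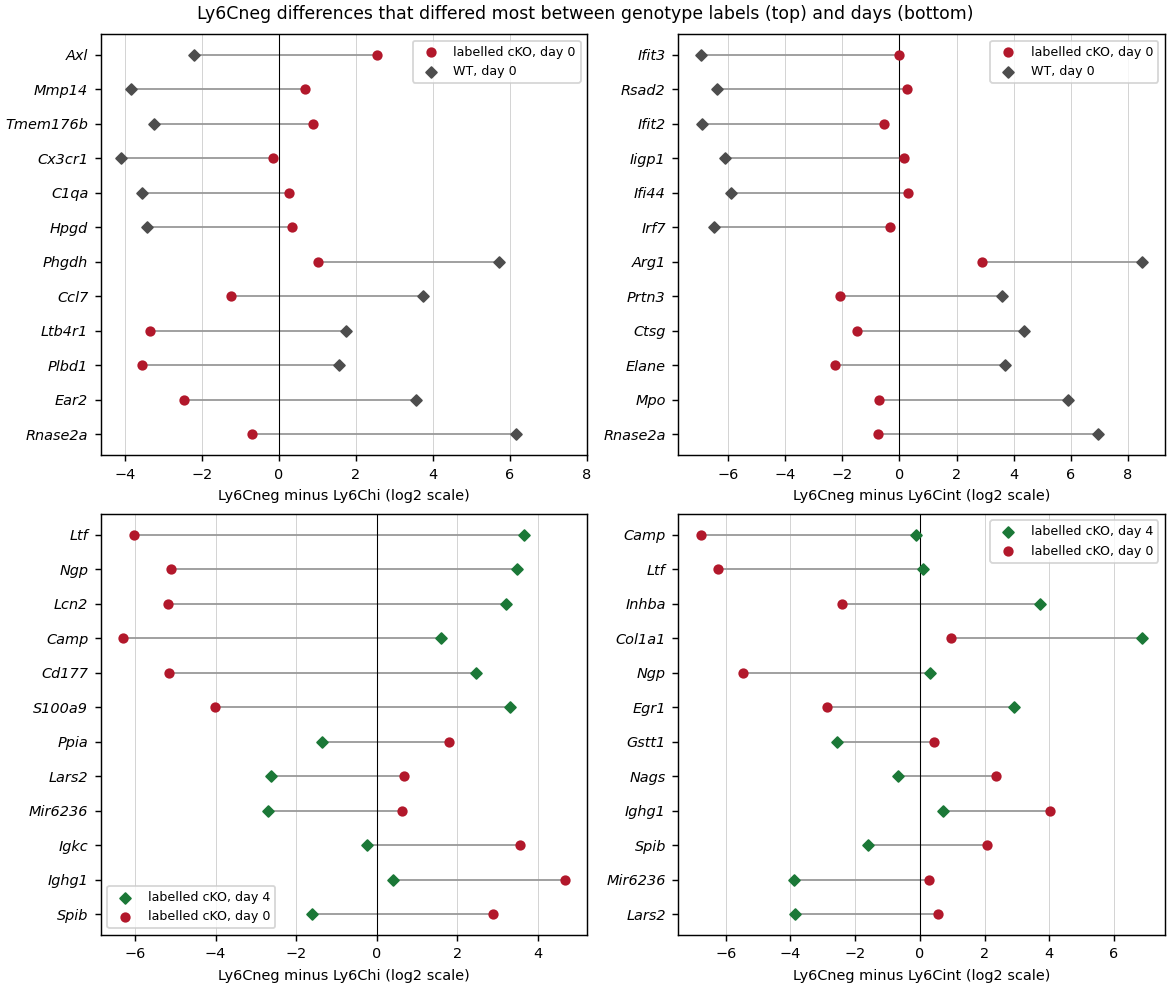
Ly6Cneg minus Ly6Chi (left) or Ly6Cint (right) on the log2 scale, for the 12 named genes of each interaction. In the upper panels red circles are libraries labelled cKO and grey diamonds WT at day 0; in the lower panels green diamonds are day 4 and red circles day 0, all labelled cKO. Later granule genes such as Ltf and Camp lie far below 0 at day 0 and near or above 0 at day 4.

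After 4 days in MCSF and RANKL, Ltf was no longer lower in Ly6Cneg than in other libraries labelled cKO. The difference at day 4 minus that at day 0 was called for 6291 genes against Ly6Chi (16.2%) and 7964 against Ly6Cint (20.5%). Ltf had 12.47, 12.58 and 12.78 in OC Ly6Cneg, 9.56, 8.85 and 8.43 in OC Ly6Chi and 12.40, 12.63 and 12.48 in OC Ly6Cint libraries, and the changes from day 0 were 9.68 ± 0.42 and 6.36 ± 0.42. At day 4 the Ly6Cneg values thus lay above Ly6Chi and overlapped with Ly6Cint. Camp, Ngp, Lcn2, Cd177 and S100a9 were among the largest such changes. H2-Aa stayed higher in Ly6Cneg cells. It had 14.11, 14.01 and 13.78 in OC Ly6Cneg, 9.47, 9.12 and 9.13 in OC Ly6Chi and 9.74, 9.82 and 10.003 in OC Ly6Cint libraries.

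Dcstamp reversed its order. It had 13.25, 13.19 and 13.30 in OC Ly6Cneg, against 14.63, 14.39 and 14.31 in OC Ly6Chi and 14.57, 14.56 and 14.64 in OC Ly6Cint libraries, so that all Ly6Cneg values were the lowest at day 4 and the highest at day 0 (changes -2.78 ± 0.23 and -2.67 ± 0.23). Ctsk had 17.30, 17.43 and 17.56 in OC Ly6Cneg, 18.11, 18.30 and 18.20 in OC Ly6Chi and 18.36, 18.38 and 18.50 in OC Ly6Cint libraries, and its change did not pass (adjusted p = 0.0816 and 0.0904). Irf8 was higher in OC Ly6Cneg cells, with 13.54, 13.51 and 13.36, against 11.97, 11.95 and 12.02 in OC Ly6Chi and 11.70, 11.85 and 11.96 in OC Ly6Cint libraries. The changes from day 0 were 1.69 ± 0.12 and 1.85 ± 0.12 (adjusted p = 2.02e-14 and 1.66e-15). Spib, an Ets factor gene of dendritic and B cells, also changed order. At day 4 it had 6.71, 6.91 and 6.998 in OC Ly6Cneg, 8.41, 8.43 and 8.56 in OC Ly6Chi and 8.54, 8.44 and 8.45 in OC Ly6Cint libraries. At day 0 it had 7.85, 7.80 and 7.70 in the Ly6Cneg libraries, against 3.896, 5.42 and 5.39 in the Ly6Chi and 5.75, 6.10 and 5.24 in the Ly6Cint libraries (changes -4.48 ± 0.35 and -3.70 ± 0.35).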

How the data were processed

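The authors deposited log2-scale, already normalised values of 38942 genes for 34 of the 36 samples, and the other 2 were not analysed here. How reads were counted, with or without strand, and how the log values were formed is not stated in the labels. Tools named in the submitters' processing notes, without roles, are HISAT2, deepTools, DESeq2, bcl2fastq 2.17.1 and CASAVA 1.8.4, and the build is mm10. Low values formed a ladder of whole reads, which gave relative depths (0.573 to 1.416 over all 34 libraries, a 2.47-fold range). Total reads are unknown. The scale flattens near 0 reads, which understates the differences of low genes. Within each day 0 fraction labelled cKO no replicate copied another, since replicate pairs differed by 2.59 to 5.91 chi-square units per gene. Pairs between groups and in other groups were not checked in this way.

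All 34 libraries entered 1 linear model with a mean for each of 12 groups, fitted with limma 3.58.1 (R 4.3.3). The variance prior was trended and robust, and 22 degrees of freedom remained. Tested genes, 38873 in all, exceeded 4.784 in 3 or more libraries, the 5th percentile of non-minimum values. P-values were adjusted by Benjamini-Hochberg over all genes tested and called under 0.05. The fit was tested on simulated data in which each gene had the same spread in all groups. That test does not cover groups of unequal spread. Coordinates are from GENCODE M21 and promoters from RefSeq.

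The comparison and the 42 gene lists were chosen with earlier results of these data known. Genes were named by a rule. The 15 largest changes each way were called in the same direction against both groups without overlap. Their level was at or above the median of 6.11. Up to 4 members a list were named if called in the same direction against both, whatever their overlap or level. The 6 genes each way per interaction were at or above that median and called in the interaction. The following were chosen after their values were seen: Acp5, Adgre1, C1qb, Ccr2, Cd36, Cebpa, Ciita, Csf1, Csf1r, Csf3r, Ctsk, Cx3cr1, Cyba, Elane, Flt3, H2-Oa, H2-Ob, Igha, Il1b, Itgam, Kit, Klf4, Ly6g, Maf, Mki67, Mpo, Ncf4, Nfatc1, Nr4a1, Procr, Rac2, Siglech, Spi1, Tnfrsf11a, Tnfrsf11b, Zbtb46, mt-Co2, mt-Nd1 and list members given without an error. Some genes that the rule names are not reported here. Genes with near-identical copies or antisense partners are uncertain. Alternatives were no or a stricter filter, median centring, quantile normalization, no trended or robust prior, array weights, only the compared libraries, each library left out, and, added later, only genes at a level of 8 or more.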

Additional observations from a re-analysis of the deposited data

Results flagged for a closer look

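Each gene below had a Ly6Cneg difference that was itself called different between genotype labels or between days, by an interaction term of the limma fit. These are the 6 largest each way of each interaction, out of the called genes, and values are differences of differences on the log2 scale. The comparisons against Ly6Chi and Ly6Cint share the Ly6Cneg libraries, and the mix of sexes moves with the genotype label, so the 2 cannot be told apart.

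For libraries labelled cKO minus WT, set against Ly6Chi, the largest positive values were those of Axl (4.75), Mmp14 (4.53), Tmem176b (4.13), Cx3cr1 (3.96), C1qa (3.82) and Hpgd (3.76), genes of tissue macrophages among them. The largest negative values were those of Rnase2a (-6.85), Ear2 (-6.03), Plbd1 (-5.11), Ltb4r1 (-5.07), Ccl7 (-4.97) and Phgdh (-4.71), which include ribonuclease and chemotactic receptor genes of granulocytes and monocytes. Set against Ly6Cint, the positive ones were Ifit3 (6.93), Rsad2 (6.65), Ifit2 (6.37), Iigp1 (6.25), Ifi44 (6.18) and Irf7 (6.16), all interferon-inducible, and the negative ones Rnase2a (-7.71), Mpo (-6.63), Elane (-5.93), Ctsg (-5.85), Prtn3 (-5.68) and Arg1 (-5.63), of which 4 are primary granule genes.

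For day 4 minus day 0, set against Ly6Chi, the largest positive values were those of Ltf (9.68), Ngp (8.59), Lcn2 (8.40), Camp (7.89), Cd177 (7.60) and S100a9 (7.34), all genes of later neutrophil granules or calprotectin. The negative ones were Spib (-4.48), Ighg1 (-4.28), Igkc (-3.79), Mir6236 (-3.34), Lars2 (-3.29) and Ppia (-3.16). Set against Ly6Cint, Camp (6.65), Ltf (6.36), Inhba (6.11), Col1a1 (5.92), Ngp (5.79) and Egr1 (5.77) had the largest positive values and Lars2 (-4.43), Mir6236 (-4.19), Spib (-3.70), Ighg1 (-3.32), Nags (-3.04) and Gstt1 (-3.004) the largest negative ones. Counts of Rnase2a, Ear2, Mir6236, Lars2, Ppia, Ighg1 and Igkc are uncertain, since these genes have near-identical copies or overlap repeated sequence. Groups of 3 libraries are too small for a check of single libraries that lie apart.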

How the results depend on the processing

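With only the compared libraries, calls were 2121 against Ly6Chi and 5213 against Ly6Cint, each from its own fit of 6 libraries, and 2525 against both from 1 fit of 9, so that the last can exceed the first. The genotype and day interactions against Ly6Chi then numbered 3142 and 4148. With array weights, 4736 genes were called against Ly6Chi and 3735 against both. Among genes at a level of 8 or more, an alternative chosen after seeing the data, 4959 were called against Ly6Chi (37.4% higher), 6110 against Ly6Cint (46.2%) and 4004 against both (39.1%). Leaving out each library gave 7592 to 10921 genes against Ly6Chi, 8490 to 10337 against Ly6Cint, 5142 to 6911 against both, 5177 to 7605 and 4031 to 5491 for the genotype interactions against Ly6Chi and Ly6Cint, and 5632 to 6725 and 7237 to 8262 for those of day. Quantile normalization moved the median difference of all genes to 0.0264 against Ly6Chi and 0.0336 against Ly6Cint, where it was 0.243 and 0.174, and the higher share of calls against Ly6Chi to 56%, where it was 69.6%. Median centring made 72.9% of the genotype interaction calls against Ly6Chi positive, where it was 56.7%. Over single genes, 6796 of the alternative values kept their side of the threshold, and 311 lost and 51 gained a call. Of values called in the main fit or the alternative, 0 changed direction, and changes of sign without a call were not counted. Of 500 gene results, 99 lost a call in at least 1 alternative. No paired analysis was possible because replicates carry no number that is shared between groups. Values near 3.896 are limited by depth: a gene there was not detected, not shown absent.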
